A study of Mus musculus with 8 samples.

Results

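The genes described here are *Nrg1*, *Hbegf*, *Egfr*, *Erbb2*, *Erbb3* and *Erbb4*, which encode the neuregulin ligand, a heparin-binding ligand and the 4 receptors of the ErbB family. They were picked by gene symbol from the table of normalized expression, and all 6 of the 6 were present among its 14608 genes. ErbB receptors are tyrosine kinases of the cell surface that work in pairs. Neuregulin binds ERBB3 and ERBB4, ERBB2 has no known ligand of its own and serves as the partner that the others prefer, and ERBB3 has little kinase activity and depends on that partner. HBEGF binds EGFR and ERBB4. In the embryonic heart, neuregulin is made by the endocardium, the inner lining, and acts on *Erbb2* and *Erbb4* in the muscle, which is needed for trabeculation. *Erbb3* is known from the cushion mesenchyme and from neural crest and its glial derivatives, and HBEGF and EGFR are known to hold back the growth of the valve cushions.

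RNA-seq had been performed on the outflow tract (OFT) of mouse embryos at E11.5, the stage at which the cushions of the semilunar valves fill with mesenchyme. There were 4 libraries labelled control (WT in their titles, with no further genotype given) and 4 labelled Mib1V943F/+ Gata6STOP/+. The latter, called mutant-labelled below, carry 1 missense allele of *Mib1*, a ubiquitin ligase that Notch ligands need, and 1 null allele of *Gata6*, a transcription factor. Both alleles come from mouse lines that were crossed so as to lie in trans, and the labels name no Cre. Sex and litter are not given in the labels. The series text gives 3 individuals per pool while the methods give another pool size and fewer pools per genotype than there are libraries. The number of embryos per library, and whether all 4 libraries of a group are separate pools, are therefore uncertain, and the p-values measure only the spread between these libraries.

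Values are CPM (reads scaled to the size of the library) as normalized by the authors, and the reads on listed genes, recovered from the steps of the values, ran from 10669420 in control replicate 2 to 30469165. *Gata6* RNA was at 236.5 to 279 CPM in the control and from 213 to 284 CPM in the other group, and *Mib1* RNA at 107 to 138 and 123 to 137 CPM. Neither therefore separated the groups, and every direction given here rests on the labels. Marker genes of the cell types of the OFT were abundant, with summed levels of 19600 to 29130 CPM for 10 cardiomyocyte markers, 4100 to 5281 CPM for 10 of cushion mesenchyme, 2808 to 3333 CPM for 8 of smooth muscle and 1199 to 1486 CPM for 10 of endocardium and endothelium. Of 9 epithelial markers only *Krt8* and *Krt18* were in the table, which lists no gene under 1 CPM in more than 4 libraries. Mutant replicate 2 and control replicate 2 stood apart from the others. The former held the highest or the lowest value of 53.5% of all genes and of 5 of the 6 genes described here, and the latter of 44.4% and of 4 of the 6, so results are also given without the former.

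The genes lie at separate places in GRCm38, all with protein-coding transcripts. *Nrg1* (ENSMUSG00000062991) spans 1069479 bp on chromosome 8, from 31814551 to 32884029 on the minus strand, with 18 annotated transcripts whose reads are summed in 1 value. *Hbegf* (ENSMUSG00000024486) lies on chromosome 18 from 36504927 to 36515805, on the minus strand, and is thus on the chromosome of the mutated genes, 25.4 Mb beyond the end of *Gata6*. *Egfr* (ENSMUSG00000020122, 16752203 to 16918158) and *Erbb2* (ENSMUSG00000062312, 98412470 to 98437716) lie on the plus strand of chromosome 11. *Erbb3* (ENSMUSG00000018166) spans 22130 bp on chromosome 10, from 128567523 to 128589652, and *Erbb4* (ENSMUSG00000062209) spans 1075874 bp on chromosome 1, from 68032186 to 69108059, both on the minus strand.

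To set the genes beside each other, the CPM were divided by the length of the longest coding transcript in kb. On this scale *Erbb2* had the highest level, with 23.7 ± 2.53 CPM per kb (SD, n = 8 libraries), and none of its values, 18.6 to 26.3, overlapped those of another gene. *Erbb3* (10.9 ± 1.97) and *Hbegf* (8.92 ± 1.33) came next and overlapped each other. *Erbb4* (4.90 ± 0.611) and *Nrg1* (4.39 ± 0.737) also overlapped, and *Egfr* had the lowest mean at 2.24 ± 0.499 CPM per kb (SD, n = 8 libraries each), its highest library (3.25) just above the lowest of *Nrg1* (3.19). The place of *Nrg1* and *Egfr* depends on the transcript, since with the median length of the coding transcripts they were at 9.79 and 7.78 CPM per kb, in the range of *Hbegf*, while *Erbb2* stayed highest.

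The genotypes were compared to ask which of these genes differ in the OFT of the double heterozygotes. None of the 6 genes passed an adjusted p-value of 0.05 in limma (on log2(CPM + 0.5), Benjamini-Hochberg adjustment over all genes), where 0 of the 14608 genes (0%) did, and none passed the edgeR likelihood ratio test, which used the recovered reads, where 107 genes (0.732%) did. The quasi-likelihood test of edgeR called 0 genes, with 1708 genes under 0.05 before adjustment, where limma had 1763. DESeq2 called 192 of the 14608 genes, with *Egfr* as the only one of the 6 among them. With a limma p-value under 0.05 before adjustment, *Egfr* was higher, as were 5.45% of all genes, and *Erbb2* was lower, as were 6.62%. Those 2 genes were also the ones with no overlap between groups, a property of 3.2% (higher) and 3.9% (lower) of all genes. *Nrg1*, *Hbegf*, *Erbb3* and *Erbb4* had overlapping groups.

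**Figure D1:**
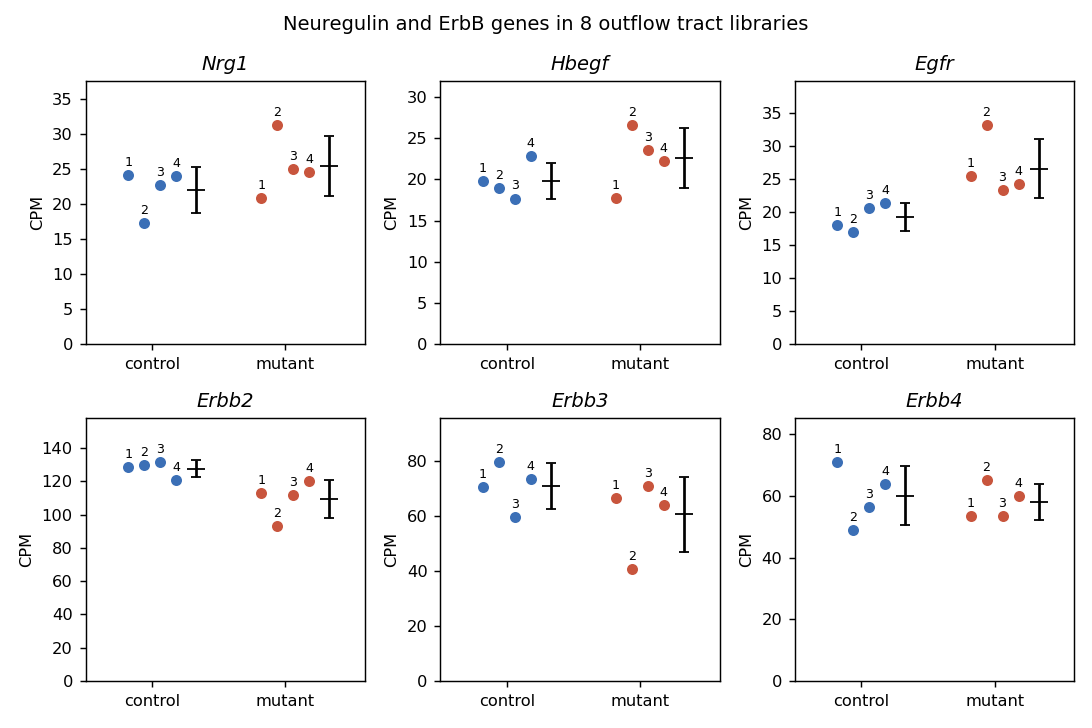
Level of each gene in CPM (vertical axes, starting at 0) in the 4 control and 4 mutant-labelled libraries. Points are libraries numbered by replicate, and bars are the mean and SD (n = 4). All 4 mutant-labelled points of *Egfr*, from 23.3 to 33.2 CPM, lie above the control points, and those of *Erbb2* lie below them by a margin of 0.458 CPM, while the other 4 genes overlap.

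*Nrg1*, the ligand of ERBB3 and ERBB4, was at 24.2, 17.3, 22.7 and 24.0 CPM in the controls, replicates 1 to 4. In mutant-labelled replicates 1 to 4 it was at 20.96, 31.3, 25.0 and 24.7 CPM. Of the mutant-labelled libraries 3 were above all controls, the highest being replicate 2, and replicate 1 was below 3 of the controls. The means were 22.05 ± 3.26 and 25.5 ± 4.31 CPM (SD, n = 4 each), which gives 0.20 as log2 fold change (standard error 0.13, 95% confidence interval -0.09 to 0.50). This did not pass the test (adjusted p = 0.543 in limma, exact permutation p = 0.314). It was 0.10 without mutant replicate 2 and 0.09 without control replicate 2. It was also 0.11 after each library had been corrected for its trend with transcript GC content.

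*Hbegf*, the ligand of EGFR and ERBB4, was at 19.7, 19.0, 17.7 and 22.8 CPM in the control libraries. The mutant-labelled libraries were at 17.8, 26.6, 23.6 and 22.2 CPM, so that 2 of them exceeded all controls and replicate 1 was near the lowest control. The log2 fold change was 0.18 (standard error 0.12, 95% confidence interval -0.09 to 0.44), within the spread of the libraries (adjusted p = 0.563 in limma, exact permutation p = 0.286). Without mutant replicate 2 it was 0.09 and without mutant replicate 1 it was 0.28. In both ligand genes the spread between libraries of a group, with coefficients of variation of 11% to 16.9%, was above the 3.92% to 5.06% that counting of reads alone gives.

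*Egfr*, the receptor of EGF, TGFA and HBEGF, gave the largest difference of the 6 genes. The control libraries held 17.98, 16.97, 20.6 and 21.4 CPM, from 179 to 554 reads. The mutant-labelled libraries held 25.4, 33.2, 23.3 and 24.3 CPM, from 545 to 902 reads. Every mutant-labelled library was above every control, replicate 2 the furthest, and the lowest was 1.99 CPM above the highest control. The means were 19.2 ± 2.08 and 26.6 ± 4.50 CPM (SD, n = 4 each), 1.37-fold, and the log2 fold change was 0.45 (standard error 0.12, 95% confidence interval 0.19 to 0.71), with an exact permutation p of 0.0286, the smallest that 4 against 4 libraries can give. *Egfr* ranked 158 among the 14608 genes by unadjusted p-value (0.0026). After Benjamini-Hochberg adjustment it was 0.240 in limma, 0.0573 in the likelihood ratio test and 0.243 in the quasi-likelihood test of edgeR. In DESeq2, which called 192 of the 14608 genes, it was 0.0409, so the call depended on the test. The log2 fold change was 0.34 without mutant replicate 2, with the groups still apart, and between 0.34 and 0.51 without any single library. After the GC trend was removed it was 0.38.

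**Figure D2:**
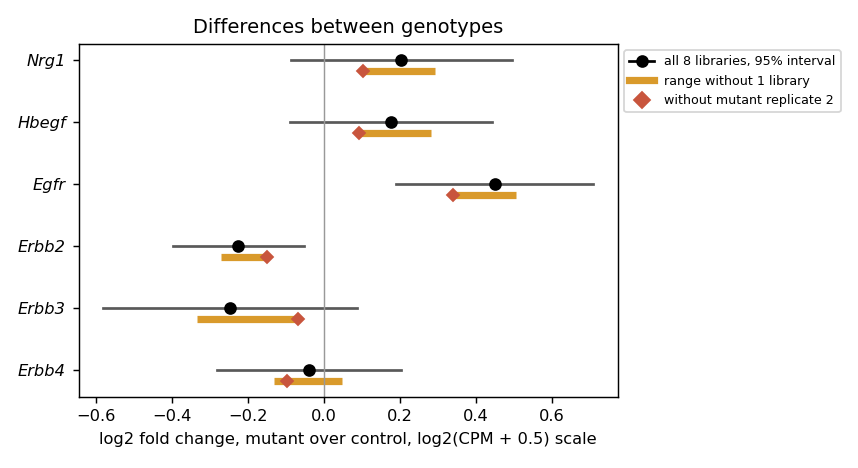
Log2 fold change of each gene between mutant-labelled and control libraries, on the log2(CPM + 0.5) scale. Circles and thin lines are the values from 8 libraries with their 95% confidence intervals, thick bars are the range without 1 library and diamonds are the values without mutant replicate 2. The intervals of *Egfr* (0.19 to 0.71) and *Erbb2* (-0.40 to -0.05) leave out 0.

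The promoter of *Egfr* is shown because its RNA differed most, as the 300 bases from 250 before to 50 after the start site (RefSeq, GRCm38.p6, plus strand, chr11:16751953-16752252). Capitals mark a GC box (GGGCGG, read on the opposite strand), which starts 9 bases before the start site and which 35.7% of all 32851 promoter windows hold on either strand.
*Egfr*: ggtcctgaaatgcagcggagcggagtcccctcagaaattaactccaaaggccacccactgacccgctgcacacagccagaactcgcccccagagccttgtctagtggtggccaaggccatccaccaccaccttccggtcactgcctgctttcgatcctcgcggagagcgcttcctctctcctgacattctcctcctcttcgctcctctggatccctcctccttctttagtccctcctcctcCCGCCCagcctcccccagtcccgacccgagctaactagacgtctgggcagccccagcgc
The promoter of *Erbb2*, the other gene whose groups did not overlap, is given in the same way (plus strand, chr11:98412234-98412533). Here capitals mark a CCAAT word, which starts 41 bases before the start site and is found in 37.4% of the windows.
*Erbb2*: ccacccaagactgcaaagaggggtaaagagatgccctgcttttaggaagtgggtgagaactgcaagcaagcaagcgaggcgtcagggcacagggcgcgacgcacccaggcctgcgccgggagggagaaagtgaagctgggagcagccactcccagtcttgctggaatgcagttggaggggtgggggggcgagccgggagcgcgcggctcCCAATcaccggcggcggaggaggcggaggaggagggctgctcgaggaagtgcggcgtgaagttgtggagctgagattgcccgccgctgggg
Both windows are rich in G and C, with 62.3% in *Egfr* and 66.0% in *Erbb2*. The GATA words (GATA with A or T before it and A or G after it) were found on either strand in 29.8% of windows. Neither they nor the RBPJ word TGGGAA, found in 25.6%, were among these letters or in the window of *Erbb4*.

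*Erbb2*, the shared partner of the other receptors, had the lowest coefficient of variation among the controls (3.83%), at 128.4, 129.6, 131.8 and 120.6 CPM. Its mutant-labelled replicates 1 to 4 were at 113, 93.2, 111.5 and 120.1 CPM. All 4 were below all controls, although replicate 4 was only 0.458 CPM below control replicate 4, less than the 1.88% that counting error amounts to. The means were 128 ± 4.89 and 109 ± 11.5 CPM (SD, n = 4 each), and the log2 fold change was -0.23 (standard error 0.08, 95% confidence interval -0.40 to -0.05, exact permutation p = 0.0286). The unadjusted p-value in limma was 0.0147, and adjustment by Benjamini-Hochberg brought it to 0.331, with 0.281 for the edgeR likelihood ratio test. The log2 fold change was -0.15 without mutant replicate 2 and -0.13 after the GC trend was removed, the latter from a transcript with 57.3% G and C, the highest of the 6 genes.

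*Erbb3*, the receptor with a weak kinase, was at 70.6, 79.8, 59.6 and 73.5 CPM in the control libraries. It was at 66.4, 40.7, 71.1 and 64.2 CPM in mutant-labelled OFT, of which only replicate 2 was below all controls. On the log2 scale the groups differed by -0.25 (95% confidence interval -0.58 to 0.09, standard error 0.15, adjusted p = 0.518 in limma, exact permutation p = 0.286), and it was -0.07 without that library. *Erbb4*, the neuregulin receptor of heart muscle, was at 71.1, 48.9, 56.3 and 63.7 CPM in the control and in the mutant-labelled group at 53.5, 65.2, 53.4 and 60.05 CPM. The mutant-labelled values all lay within the control range, and the means were 60.01 ± 9.55 and 58.0 ± 5.70 CPM (SD, n = 4 each). Its log2 fold change of -0.04 (standard error 0.11, adjusted p = 0.898 in limma, exact permutation p = 0.771) turned to 0.05 without control replicate 1 and was -0.16 after the GC trend was removed. The 95% confidence interval, -0.28 to 0.20, leaves room for differences in either direction.

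**Figure D3:**
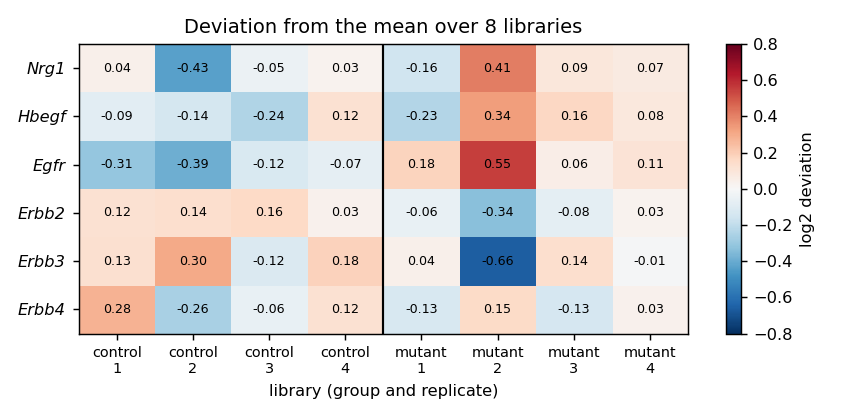
Deviation of each gene (rows) from its mean over the 8 libraries (columns), in log2 units. In mutant replicate 2 the ligands and *Egfr* are at their highest (0.34 to 0.55) and *Erbb2* and *Erbb3* at their lowest (-0.34 and -0.66), and in control replicate 2 *Nrg1*, *Egfr* and *Erbb4* are at their lowest.

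Since receptors act in pairs, the log2 ratio between genes was taken within each library, which does not depend on its scaling, for 4 pairs of genes. The ratio of *Egfr* to *Erbb2* was -2.84, -2.93, -2.68 and -2.50 in the control libraries. In the mutant-labelled libraries it was -2.15, -1.49, -2.26 and -2.31. The ratios did not overlap, which was fixed beforehand, since every mutant-labelled library was above every control in *Egfr* and below every control in *Erbb2*. The exact permutation p of this ratio with all 8 libraries was thereby fixed too and adds no support. Mutant replicate 2 was again the furthest from the controls. The difference was 0.69 in log2 units, from -2.74 ± 0.19 to -2.05 ± 0.38 (SD, n = 4 each, exact permutation p = 0.0286, 0.114 with Benjamini-Hochberg adjustment over the 4 ratios), and 0.50 without mutant replicate 2 (exact permutation p = 0.0571). *Erbb3* over *Erbb2* differed by -0.02 (exact permutation p = 0.857, adjusted p = 0.857), *Erbb4* over *Erbb2* by 0.19 (exact permutation p = 0.343, adjusted p = 0.686, or 0.055 without mutant replicate 2 and 0.086 without control replicate 2) and *Hbegf* over *Nrg1* by -0.03 (exact permutation p = 0.83, adjusted p = 0.857), all less than the spread of the libraries. These differences turned sign for *Erbb3* over *Erbb2* without control replicate 2 or 4 or mutant replicate 2, and for *Hbegf* over *Nrg1* without control replicate 2.

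Markers of heart muscle were lower in the mutant-labelled libraries. Of 10 cardiomyocyte markers, 0 passed limma after adjustment, 9 had a lower level with a p-value under 0.05 before it (6.62% of all genes), 5 passed the likelihood ratio test (0.732% of all genes), and the median log2 fold change was -0.34, against 0.001 over all genes. *Tnnt2*, cardiac troponin T, was at 1862 ± 124.5 CPM in control OFT and 1457 ± 94.99 CPM in mutant-labelled OFT (SD, n = 4 each, log2 fold change -0.35). In bulk tissue, fewer muscle cells and less of these RNAs per cell cannot be told apart. Among the markers of other cell types, *Isl1* of the second heart field (log2 fold change 0.64), *Rgs5* of smooth muscle and mural cells (0.57) and *Stmn2* of neurons (0.58) passed the likelihood ratio test with higher levels (edgeR, adjusted p = 0.00142, 0.00142 and 0.0437) and are named here after their values were seen. Without mutant replicate 2 the adjusted p of *Stmn2* was 0.134 in that test. Each was the only gene of its list to pass. The median log2 fold change was 0.41 for 4 second heart field markers, 0.03 for 8 of smooth muscle and 0.30 for 4 of neurons. Positive values were found in 4, 5 and 3 of them. *Myocd* of smooth muscle (-0.27) and *Tubb3* of neurons (-0.08) were among those that were not. The part of these differences in the difference of *Erbb2* or *Egfr* was not tested, and the library-by-library relation of each gene to the markers is given next. As a score, the log2 deviations of the markers from their own means were averaged in each library.

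*Erbb2* correlated with the cardiomyocyte score over the 8 libraries with a Pearson r of 0.93 (exact permutation p = 0.000422, adjusted p = 0.00211 over 10 relations) and a Spearman rho of 0.90 (exact permutation p = 0.00456). The r was 0.98 without the libraries farthest from the median score, control replicate 1 and mutant replicate 2, and 0.88 after the mean of each group was subtracted. *Egfr* ran the other way, with an r of -0.93 (exact permutation p = 0.000322, adjusted p = 0.00211) and a rho of -0.90 (exact permutation p = 0.00456), -0.88 without the same libraries and -0.80 with group means subtracted. The groups differ in the score and do not overlap in *Erbb2* or *Egfr*, and the p-values over all pairings take no account of that. With 4 libraries per group, no r was taken within a group. *Erbb4*, although known from heart muscle, had an r of -0.01 (exact permutation p = 0.980) and a rho of 0.07 (exact permutation p = 0.882) with the same score. The other 3 genes did not pass (adjusted p = 0.192 each, exact permutation), with r between -0.65 (*Hbegf*) and 0.60 (*Erbb3*). The relations of *Egfr*, *Nrg1*, *Erbb3* and *Hbegf* with this score were added after the data had been seen. The score was 0.168 ± 0.093 in the control and -0.168 ± 0.099 in the mutant-labelled group (SD, n = 4 each). Subtracting it from the log2 level thus raises the difference of every gene by the same amount. For *Erbb2* the difference was then 0.11 (exact permutation p = 0.0857), against -0.23 before. It was 0.09 for *Erbb3*, 0.30 for *Erbb4*, 0.51 for *Hbegf*, 0.54 for *Nrg1* and 0.79 for *Egfr*. This shift cannot show what part of the *Erbb2* difference goes with the markers, which was not tested.

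**Figure D4:**
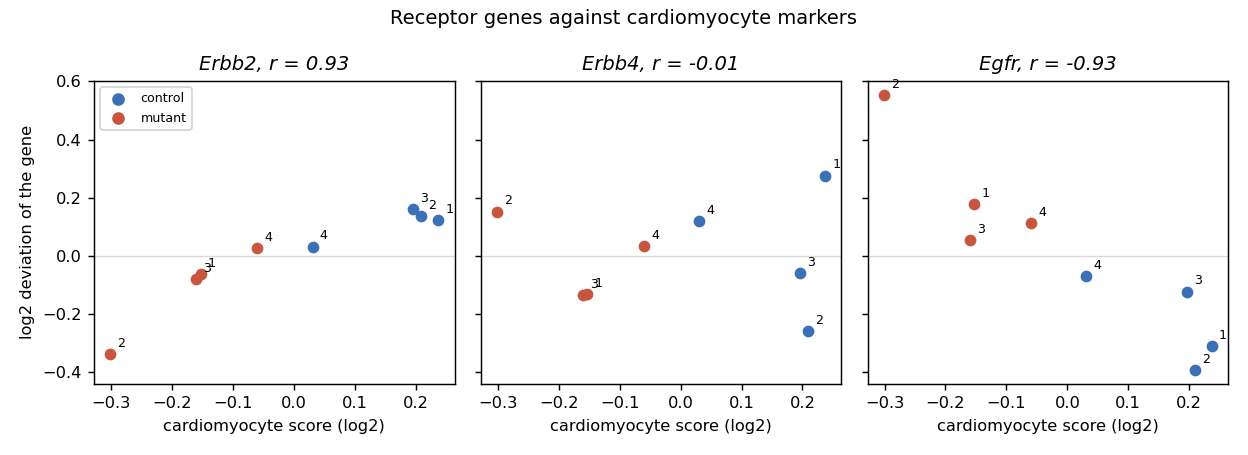
Log2 deviation of *Erbb2*, *Erbb4* and *Egfr* (vertical axes) against the mean log2 deviation of 10 cardiomyocyte markers (horizontal axes) in each library, numbered by replicate. *Erbb2* follows the score (r = 0.93), *Egfr* runs against it (r = -0.93) and *Erbb4* does neither (r = -0.01).

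For the other cell types known to use these genes, no relation passed over the libraries. *Nrg1* and *Hbegf*, known from the endocardium, had an r of -0.30 (exact permutation p = 0.456, adjusted p = 0.685 over 6 relations) and -0.51 (exact permutation p = 0.193, adjusted p = 0.398) with the score of endocardium and endothelium. The respective rho were -0.36 (exact permutation p = 0.389) and -0.62 (exact permutation p = 0.115). Of the 10 markers in that score, 3 were lower and 0 higher with an unadjusted limma p-value under 0.05, against 6.62% and 5.45% of all genes. Their median log2 fold change was -0.09, with positive values in 3, and 0 passed the likelihood ratio test. *Egfr* had an r of -0.02 (exact permutation p = 0.971) and a rho of 0.17 (exact permutation p = 0.703) with cushion mesenchyme, whose markers had a median log2 fold change of 0.04, with 0 of 10 past an unadjusted p-value of 0.05 in limma. *Erbb3* had an r of 0.51 (exact permutation p = 0.199) and a rho of 0.26 (exact permutation p = 0.536) with the neural crest and glia score, and an r of 0.06 without mutant replicates 2 and 4. That score rests on 3 genes, among them *Sox10* and *Cdh19*, and *Foxd3*, *Fabp7*, *Gfra3* and *S100b* were not in the table. *Sox10*, which defines neural crest glia, was low, at 2.84 ± 1.01 CPM in control OFT and 1.98 ± 0.734 CPM in mutant-labelled OFT (SD, n = 4 each), and was at 1.10 CPM in mutant replicate 2, where *Erbb3* was lowest. The score of 6 epicardial markers was highest in that library too, at 0.47 against -0.40 to 0.24 in the others, although *Msln* among them was not.

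The genes whose log2 levels over the 8 libraries were most like those of each gene are given as a description, picked as the highest Pearson r among all genes. For *Egfr* they were *Rwdd1* (r = 0.994) and *Zcchc12* (0.986), for *Erbb2* *Ehbp1l1* (0.983) and *Mef2d* (0.981), and for *Erbb3* *Fto* (0.987) and *Tmem50a* (0.977). *Nrg1* was most like *Kdm5a* (0.989) and *Zkscan8* (0.989), *Hbegf* like *Pcdhb19* (0.997) and *Edil3* (0.978), and *Erbb4* like *Arhgef12* (0.978) and *Tmem170b* (0.952). All points share the same 8 libraries, among them those that stand apart. Among the 6 genes themselves, *Egfr* and *Erbb2* were the most opposed, with an r of -0.92, or -0.81 without mutant replicate 2, while *Erbb2* and *Erbb3* had 0.75, or -0.02 without it.

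The rest of the pathway was followed with 5 typed lists. No gene of these lists passed limma or the likelihood ratio test after adjustment, and shares at an unadjusted p-value under 0.05 are to be read against the 5.45% higher and 6.62% lower of all genes. Of 9 other ligands, 4 were in the table, all at low levels and with overlapping groups. These were *Tgfa*, another EGFR ligand, at 6.57 ± 0.776 and 7.19 ± 0.786 CPM, *Egf* itself at 1.80 ± 0.383 and 1.99 ± 0.318 CPM, *Nrg2* at 1.33 ± 0.226 and 1.12 ± 0.144 CPM, and *Btc* at 1.06 ± 0.438 and 1.16 ± 0.619 CPM (control and mutant-labelled, SD, n = 4 each). *Areg*, *Ereg*, *Epgn*, *Nrg3* and *Nrg4* were not in the table. All 8 proteases and cofactors that release ligands were measured, with a median log2 fold change of 0.03 and 0 of 8 past an unadjusted p-value of 0.05 in limma. *Rhbdf2*, which brings ADAM17 to the surface, was at 13.9 ± 1.002 and 11.8 ± 1.51 CPM, *Adam9* at 105 ± 8.23 and 114 ± 14.2 CPM, and *Adam10*, which also cuts Notch, at 249.5 ± 28.7 and 265 ± 11.8 CPM (SD, n = 4 each).

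Of the 27 adaptors and effectors, 2 were lower with p under 0.05 before adjustment (limma), and both had groups that did not overlap. *Hras*, a small GTPase below the receptors, was at 45.5, 54.7, 47.5 and 45.3 CPM in the control, and mutant-labelled replicates 1 to 4 were at 44.02, 34.3, 42.8 and 42.1 CPM. *Stat5b*, a transcription factor that receptor kinases switch on, was at 57.6, 54.6, 60.5 and 52.5 CPM in the control, and mutant-labelled replicates 1 to 4 were at 46.5, 48.2, 51.4 and 49.1 CPM. The log2 fold changes of *Hras* and *Stat5b* were -0.24 and -0.20 (limma, adjusted p = 0.368 and 0.322). Without mutant replicate 2 the values were -0.16 and -0.20.

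Of the 19 inhibitors and genes of receptor traffic, 1 was higher and 2 were lower by the same measure, and none had groups that did not overlap. The lower genes were *Spry2*, which holds back signals from receptor kinases to ERK, at 51.0 ± 3.42 and 44.9 ± 1.81 CPM, and *Dusp6*, an ERK phosphatase, at 46.8 ± 1.13 and 41.2 ± 3.41 CPM (SD, n = 4 each). *Dusp6* was at 47.8, 46.9, 45.2 and 47.2 CPM in the control libraries, and mutant-labelled replicates 1 to 4 were at 39.2, 46.3, 39.98 and 39.3 CPM, where replicate 2 lay among the controls. *Lrig3*, a relative of an ErbB inhibitor, was at 9.40 ± 2.04 and 11.9 ± 1.59 CPM (SD, n = 4 each). The log2 fold changes of *Spry2*, *Dusp6* and *Lrig3* were -0.18, -0.18 and 0.34 (limma, adjusted p = 0.378, 0.378 and 0.413). Of 13 response genes of ERK, 0 passed an unadjusted p-value of 0.05 in limma, with a median log2 fold change of -0.07. *Egr1* was at 22.2 ± 2.27 and 19.9 ± 1.57 CPM, *Etv1* at 39.1 ± 5.76 and 43.8 ± 3.47 CPM, and *Dusp4* at 23.2 ± 4.48 and 20.0 ± 3.84 CPM (SD, n = 4 each).

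**Figure D5:**
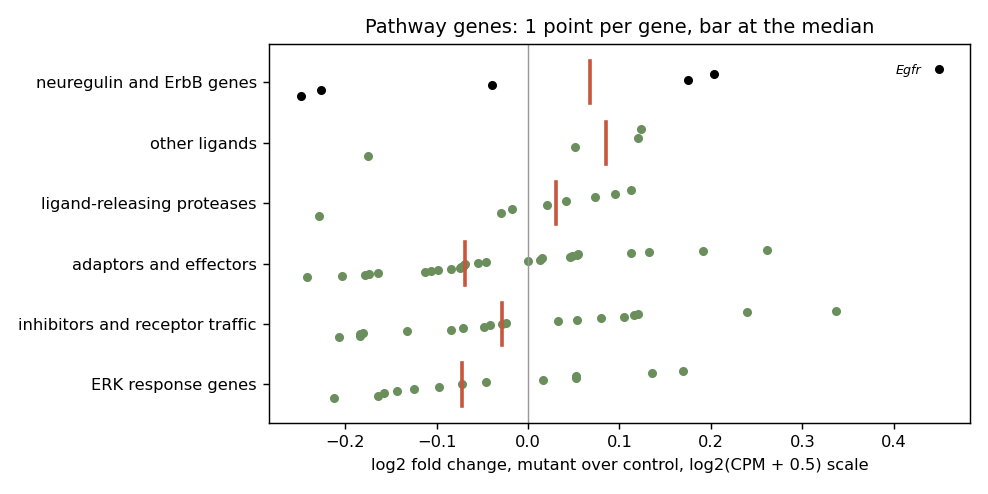
Log2 fold change between mutant-labelled and control libraries, on the log2(CPM + 0.5) scale, for the 6 genes and for the measured genes of 5 pathway lists. Each point is a gene and each bar the median of its row. *Egfr*, at 0.45, lies to the right of every other gene plotted.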

How the data were processed

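The authors removed adapters with cutadapt 1.18, quantified 60 bp reads with RSEM 1.2.3 on GRCm38, and deposited CPM normalized by TMM in edgeR 3.32.1, 1 column per library. Their methods state a filter of 1 CPM in at least 3 samples, and every gene of the table has 1 CPM in at least 4 libraries. From these, reads were recovered as multiples of the step of each column (100% of values whole within 0.02 reads). CPM + 0.5 was log2-transformed and fitted over all 14608 genes with limma 3.58.1 (trend, R 4.3.3), with all 8 libraries and no covariate. The edgeR 4.0.16 tests and DESeq2 1.42.0 were run on the recovered reads as alternatives, with pseudocounts, filters, scaling, a replicate block, a GC correction and libraries left out. Single values were tested by exact two-sided permutation over 70 relabellings, and correlations over all pairings. Scripts were tested on simulated data. Named genes were the 6 genes, up to 3 per pathway list by smallest unadjusted p, the 2 most alike per gene, *Gata6*, *Mib1* and defining markers. The genes and lists were chosen with earlier results of these data known. Gene positions are from GENCODE M21, and promoters from RefSeq, which held windows of *Egfr*, *Erbb2* and *Erbb4*. A read was worth 0.0325 to 0.0948 CPM. Some genes of the lists are not reported here.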

Additional observations from a re-analysis of the deposited data

Results flagged for a closer look

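Within groups of 4 libraries, a library was looked at again where its gap to the nearest other, as a share of the group's range, exceeded Dixon's 95% critical value, which chance gives in about 1 of 20 groups and which happened in 8 of 82 here. In mutant replicate 2 the log2 ratio of *Erbb4* to *Erbb2* was -0.516, the highest of its group, and *Dusp6* was at 46.3 CPM. *Egf* was at 1.23 CPM in control replicate 2, the library with the fewest reads, and *Egr1* at 25.6 CPM in control replicate 4. Control replicate 1 had a score of 0.041 for the ligand-releasing proteases and 0.032 for smooth muscle markers. The neuronal score was 0.314 in mutant replicate 3, and the score of second heart field and pharyngeal mesoderm was 0.637 in mutant replicate 1.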

How the results depend on the processing

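Of 162 values of the 6 log2 fold changes under the alternatives, 158 kept their direction and side of the threshold. In 17 of the 27 alternatives no gene of the table passed, so there the side of the threshold says nothing particular about these genes. *Egfr* passed in DESeq2 (0.46) and, in the likelihood ratio test, without control replicate 4 (its leave-one-out values, over limma and that test, ran from 0.33 to 0.52). *Erbb4* reversed without control replicate 1, with 0.046 in limma and 0.038 in that test, and the limma values without 1 library ran from -0.132 to 0.046. The number of genes past the threshold was 0 in limma, 107 in the likelihood ratio test and 192 in DESeq2, and without 1 library it stayed at 0 in limma and was 51, 46, 24 and 209 (without control replicates 1 to 4) and 142, 89, 38 and 144 (without mutant replicates 1 to 4) in the likelihood ratio test. A filter at a mean of 5 CPM, other pseudocounts, size factors or no trend left it at 0. Without 1 library, the ratio of *Erbb3* to *Erbb2* differed by -0.120 to 0.082, *Erbb4* to *Erbb2* by 0.055 to 0.271, *Egfr* to *Erbb2* by 0.499 to 0.771, and *Hbegf* to *Nrg1* by -0.100 to 0.066. With *Cdh5* in place of its list, *Hbegf* had an r of -0.72, and with *Sox10* in place of its list *Erbb3* had 0.77, or -0.43 and -0.25 without the 2 farthest libraries. The likelihood ratio test without single libraries was added after the data had been seen. Of 142 listed genes, 0 passed in limma, 8 in the likelihood ratio test and 29 unadjusted. Replicate numbers did not pair the libraries (r of deviations of same-numbered libraries from -0.185 to 0.0349, against -0.22 to 0.248 for the others), and with a replicate block *Egfr* kept 0.45 (adjusted p = 0.455 in limma) with 0 calls. The causes were not tested. Control replicate 2 had the fewest reads for these genes, 179 to 1367.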
